A study of Mus musculus with 2 samples.

Results

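Slitrk6 OFF cone bipolar cells were taken as 285 of the 23625 deposited cell barcodes of a mouse retina single-cell RNA study, 197 of 12316 in the library labelled Muller and 88 of 11309 in the library labelled MullerControl. They were chosen by their own counts of unique molecular identifiers (UMIs, each marking 1 captured RNA molecule). A barcode needed at least 300 genes, at least 1000 UMIs and at most 20% mitochondrial UMIs, which 8068 and 7769 barcodes met. Its Müller glia genes Glul, Rlbp1, Apoe and Slc1a3 had to make up under 0.5% of UMIs. The OFF bipolar genes Grik1, Gsg1, Scgn and Vsx1 had to sum to at least 2 UMIs, the ON bipolar genes Grm6, Isl1 and Trpm1 to at most 1, and the amacrine genes Gad1, Gad2 and Slc6a9 to fewer than 2. These steps left 479 and 177 OFF cells, and the Slitrk6 cells were those with at least 2 Slitrk6 UMIs. The OFF cells with no Slitrk6 UMI, 177 and 57, were the comparison cells, and the 105 and 32 with exactly 1 lay just outside the limit.

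Both libraries came from retinas of mice on a B6.Cg background that carry the allele Gt(ROSA)26Sortm9(CAG-tdTomato)Hze, a tdTomato reporter switched on by Cre recombinase. The mice were 14 weeks old and had been injected with an adeno-associated virus 8 weeks earlier. Dissociated tdTomato-positive cells were sorted and run on the 10x Genomics 3' platform. The positive rate was about 4.9% in the test and 10% in the control group, about 60000 and 120000 positive cells were collected, and 27000 were loaded per library. The Muller library was read as the test group because the other is labelled a control; the virus cargo, its promoter and the number of mice are not given in the sources used here. With 1 library per group there is no replicate, no test was possible, and every interval below is a 95% interval for counting error only.

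Cone bipolar cells carry signals from cones to the inner retina. OFF types respond to the glutamate that cones release in darkness through ionotropic AMPA and kainate receptors, while ON types use the metabotropic receptor Grm6 and the channel Trpm1. In the mouse, OFF types differ in the depth at which their axons end and in the genes they express: Nnat and Prkar2b are known from type 3b, Hcn4, Erbb4 and Irx6 from type 3a or types near it. Slitrk6 encodes a transmembrane protein with leucine-rich repeats, of a family that acts in neurite growth and synapse adhesion.

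Paired values below give Muller first and MullerControl second. The Slitrk6 cells held 584999 and 369951 UMIs. Their median was 2947 UMIs per cell (1072 to 10873) against 4153 (1442 to 14214). Cells without Slitrk6 were shallower in both libraries, with medians of 1764 and 3000 UMIs, so a count threshold on 1 gene also separated cells by depth. Barcodes with at least 2% of UMIs from 11 rod genes were 14 of 197 (7.11%) and 4 of 88 (4.55%) among the Slitrk6 cells, and 46 of 177 (26.0%) and 11 of 57 (19.3%) among the cells without it. The libraries shared 40 barcodes of all deposited, and no barcode was a Slitrk6 cell in both.

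Within the Slitrk6 cells the gene was counted at medians of 3 and 4 UMIs per cell, with highest counts of 9 and 13. Cells with exactly 2, just inside the limit, numbered 68 and 20. The summed level was 1147 and 1073 CPM, that is UMIs of the gene per 1000000 UMIs of the group. Among rod-like barcodes (at least 5% rod UMIs), where Slitrk6 RNA would be free or carried over, 0.911% of 1976 and 0.117% of 4284 had a Slitrk6 UMI, at median depths of 1611.5 and 1759 UMIs.

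**Figure D1:**
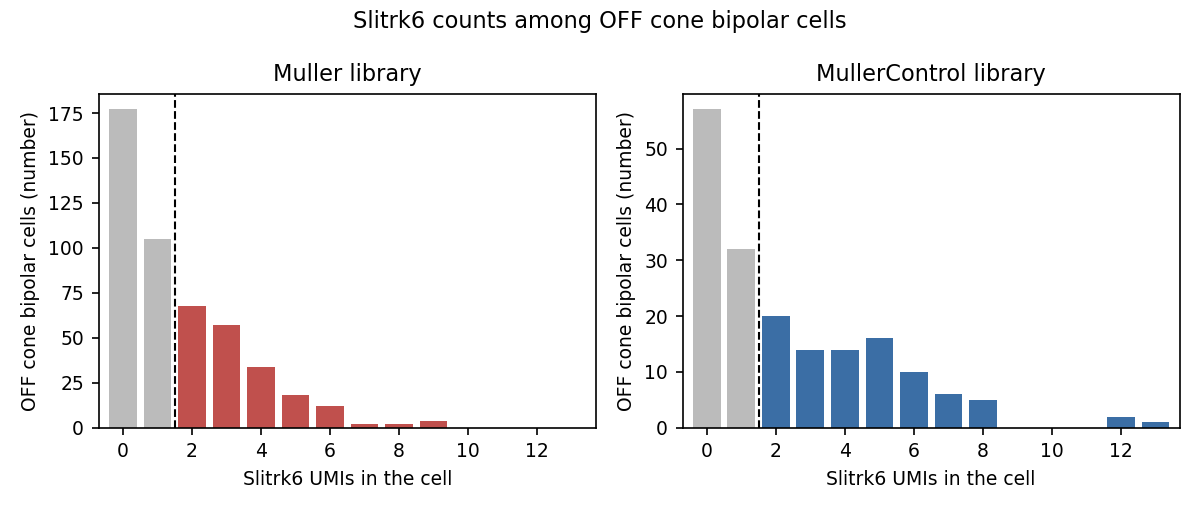
Number of OFF cone bipolar cells (y axis) at each Slitrk6 UMI count per cell (x axis) in each library; the dashed line marks the minimum of 2, and coloured bars are the 197 and 88 chosen cells. Counts fall off from 0 without a gap at the limit.

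The Slitrk6 cells made up 2.44% (2.12 to 2.80) of retained barcodes in the Muller library and 1.13% (0.909 to 1.39) in the MullerControl one, a ratio of 2.16 (1.68 to 2.77). That ratio was 1.02 when barcodes with at least 2% rod UMIs were left out, the shares then being 3.39% and 3.31%, and the sort rates of the groups differed as given above. As a share of OFF cells they were 41.1% (36.7 to 45.7) and 49.7% (42.1 to 57.3), a ratio of 0.827 (0.689 to 0.993). At a matched depth of 1000 UMIs per cell, 43.6% (39.1 to 48.2) and 40.1% (32.8 to 47.7) of OFF cells had a Slitrk6 UMI, against 63.0% and 67.8% at full depth, where median depths were 2145 and 3672 UMIs.

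Each step of the rule also left out cells with Slitrk6. Of 316 and 107 retained barcodes with at least 2 Slitrk6 UMIs, the ON step left out 86 and 18, the OFF step 25 and 1, the amacrine step 7 and 0 and the Müller step 1 and 0. Cells left out at the ON step were deep, with medians of 4754 and 5164 UMIs, and 31 and 8 of them had exactly 2 ON UMIs. Nnat was found in 58.1% and 83.3% of them and Prkar2b in 60.5% and 72.2%, beside 65.0% and 73.9%, and 60.9% and 63.6%, of the Slitrk6 cells. Grm6 or Isl1 was found in 54 of 86 and 6 of 18. Among the Slitrk6 cells themselves Trpm1 gave 61 and 34 UMIs, Grm6 3 and 2, and Isl1 4 and 1.

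Genes the rule had not used were set beside the label. Otor, a marker given with the label that encodes a secreted otoraplin, was found in 142 of 197 (72.1%) and 69 of 88 (78.4%) Slitrk6 cells, and in 0.810% and 0.0700% of rod-like barcodes. It was also found in 24.9% and 15.8% of OFF cells without Slitrk6, and in 56.2% and 43.8% of those with exactly 1 Slitrk6 UMI. Otx2, a general bipolar and also photoreceptor transcription factor, stood at 465 and 489 CPM. Lhx4, a LIM homeobox factor of cone bipolar cells, stood at 680 and 703 CPM, against 347 and 324 CPM in cells without Slitrk6. Of the markers the rule did use, Grik1, a kainate receptor subunit, was at 1511 and 1787 CPM, Gsg1 at 2981 and 2730 CPM and Scgn, a calcium-binding protein, at 400 and 443 CPM. Vsx1, a homeobox factor of several OFF types, gave only 7 and 5 UMIs, so cells passed the OFF step mainly through the other genes.

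Markers of other cells were present at different levels among the Slitrk6 cells. The 8 ganglion cell markers summed to 7 and 2 UMIs, and Pou4f1 and Pou4f2 were at 0 in both libraries, which allows up to 5.13 and 8.11 CPM. The 11 rod genes summed to 6966 and 5895 CPM, with none at 0, and to 17290 and 12756 CPM in cells without Slitrk6. The 6 cone genes summed to 1000 and 2200 CPM. The 7 Müller genes outside the rule summed to 484 and 370 CPM (660 and 147 CPM without Slitrk6), of which Clu gave 244 and 197 CPM and Sox9 171 and 159 CPM. The 7 amacrine genes outside the rule summed to 523 and 387 CPM (983 and 562 CPM without Slitrk6), of which the noncoding RNA Snhg11 gave 456 and 387 CPM. The 6 microglia genes summed to 386 and 5.41 CPM, and globin RNA was high in 1 Muller barcode, both described with the comparison between libraries. The part of such RNA in the results below was not tested beyond the values given beside them.

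Gene by gene, the Slitrk6 cells were set against the OFF cells without Slitrk6 inside each library. Because the rule divides the same cells by one of their genes, these values describe the cells and support nothing further. UMIs were summed per group, and a gene with at least 50 UMIs over the 4 sums was counted when it differed at least 2-fold the same way in both libraries. Of 5701 genes, 71 (1.25%) were higher in the Slitrk6 cells and 103 (1.81%) lower. In the Muller library alone the shares were 2.58% higher and 3.25% lower, and in the MullerControl library 6.65% and 5.31%. All ratios below are log2 of CPM with 1 count added to each sum.

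Nnat, which encodes neuronatin, a small membrane protein of the endoplasmic reticulum, had 474 UMIs (810 CPM) in the Slitrk6 cells of the Muller library and 60 (148 CPM) in those without Slitrk6. In the MullerControl library it had 235 (635 CPM) and 15 (75.9 CPM). The log2 ratios were 2.43 (2.05 to 2.82) and 2.98 (2.25 to 3.71). Prkar2b, a regulatory subunit of protein kinase A, was at 393 against 88.7 CPM and at 362 against 40.5 CPM, log2 ratios of 2.11 (1.61 to 2.62) and 3.00 (2.03 to 3.98). Both genes known from type 3b were thus higher in the Slitrk6 cells of each library.

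Otor was at 581 against 200 CPM in the Muller library and at 616 against 65.8 CPM in the MullerControl library, log2 ratios of 1.53 and 3.13. Meis2, a TALE homeobox factor, was at 499 against 158 CPM and 451 against 86.0 CPM. Pcp4, a small calmodulin regulator, was among the most abundant of these genes, at 2757 against 931 CPM and 3011 against 713 CPM. Otor, Meis2 and Pcp4 kept the same order of groups in both libraries, each with the wider gap in the MullerControl library. The log2 ratios were 1.64 and 2.32 for Meis2 and 1.56 and 2.07 for Pcp4. The remaining genes of the 12 named as highest were Slitrk6 itself, Dnaic1, a dynein intermediate chain, Cadps2, a vesicle priming factor, Bok, a BCL2 family member, Pid1 and the transcripts A930009A15Rik and Gm45604. Leaving out Slitrk6, the 11 named genes had log2 ratios of 1.46 to 2.43 and 1.60 to 3.60.

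The genes known from type 3a or its neighbours showed the opposite order. Hcn4, a hyperpolarization-activated channel, had 0 UMIs in the Slitrk6 cells of the Muller library and 35 (86.2 CPM) in cells without Slitrk6, at least 16.8-fold lower against the limit of 3 counts. In the MullerControl library it had 1 UMI against 39 (197 CPM), a log2 ratio of -5.23 (-7.28 to -3.18). Irx6, an Iroquois homeobox factor, had 2 UMIs against 55 and 2 against 86. Irx5, of the same family, had 0 against 15 and 0 against 26, at least 7.21-fold and 16.2-fold lower. Erbb4, a neuregulin receptor, had 1 against 28 and 1 against 29. These genes were therefore almost unseen in the Slitrk6 cells, although those cells were the deeper ones.

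Slit2, a secreted axon guidance ligand, had 17 UMIs (29.1 CPM) in the Slitrk6 cells and 136 (335 CPM) in those without in the Muller library, and 26 (70.3 CPM) and 255 (1290 CPM) in the MullerControl library. Its log2 ratios were -3.46 (-4.16 to -2.75) and -4.15 (-4.72 to -3.58). Pcp2, a G-protein regulator found in rod bipolar and some cone bipolar cells, was at 232 against 1523 CPM and 62.2 against 1528 CPM. The potassium channel gene Kcnh7 had 1 UMI against 30 and 0 against 33, the latter at least 20.6-fold lower. Cdh8, a cadherin, Myt1l, Qpct, Vsx1, Ppp1r1a and Zfp608 made up the rest of the 12 named as lowest. Of these, Vsx1 was a gene of the rule's OFF step, through which comparison cells could enter. For Ppp1r1a, 47 of the 63 UMIs in the Muller comparison cells lay in 1 cell.

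**Figure D2:**
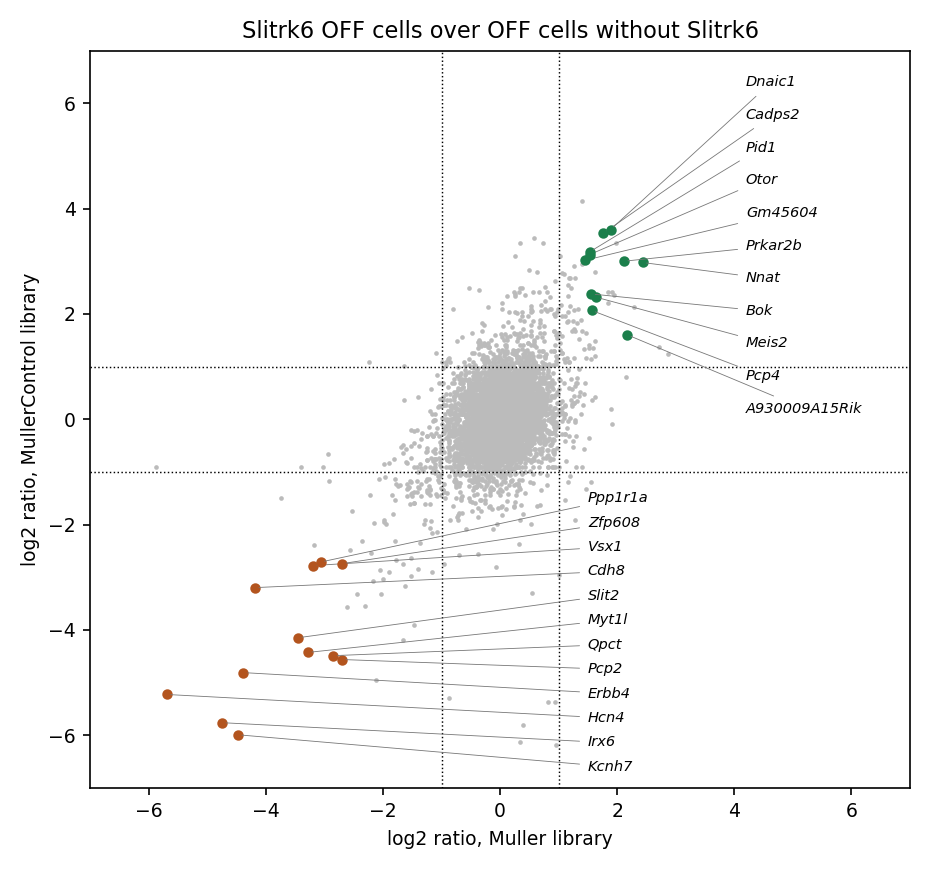
Each point is 1 of 5701 genes: log2 ratio of Slitrk6 OFF cells over OFF cells without Slitrk6 in the Muller library (x axis) and in the MullerControl library (y axis), with dotted lines at 2-fold. Named genes are coloured; 6 genes outside the axes and Slitrk6 are not drawn.

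Detection was compared at 1000 UMIs per cell to remove the gap in depth. Nnat was then found in 39.6% (32.7 to 46.8) of Slitrk6 cells and 14.7% (9.83 to 20.8) of cells without Slitrk6 in the Muller library, and in 42.0% (31.6 to 53.0) and 7.02% (1.95 to 17.0) in the MullerControl library. Rod-like barcodes showed 0.962% and 0.257%. Prkar2b was found in 36.5% against 10.7% and in 28.4% against 7.02%. Hcn4 was found in 0 of 197 and 0 of 88 Slitrk6 cells, which allows shares of up to 1.52% and 3.41%, against 7.34% and 12.3% of cells without Slitrk6. Pcp2 in the Slitrk6 cells, at 16.2% and 4.55%, lay below its share in rod-like barcodes in Muller (23.3%) and near it in MullerControl (3.83%). Scg2, at 8.12% and 4.55%, lay near its shares in rod-like barcodes, 10.6% and 3.52%. These shares do not separate the Slitrk6 cells as a whole from free RNA, and single cells with many Scg2 UMIs are given further on. Meis2 was found in 12.1% and 11.3% of rod-like barcodes, and in 40.1% and 30.7% of Slitrk6 cells.

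**Figure D3:**
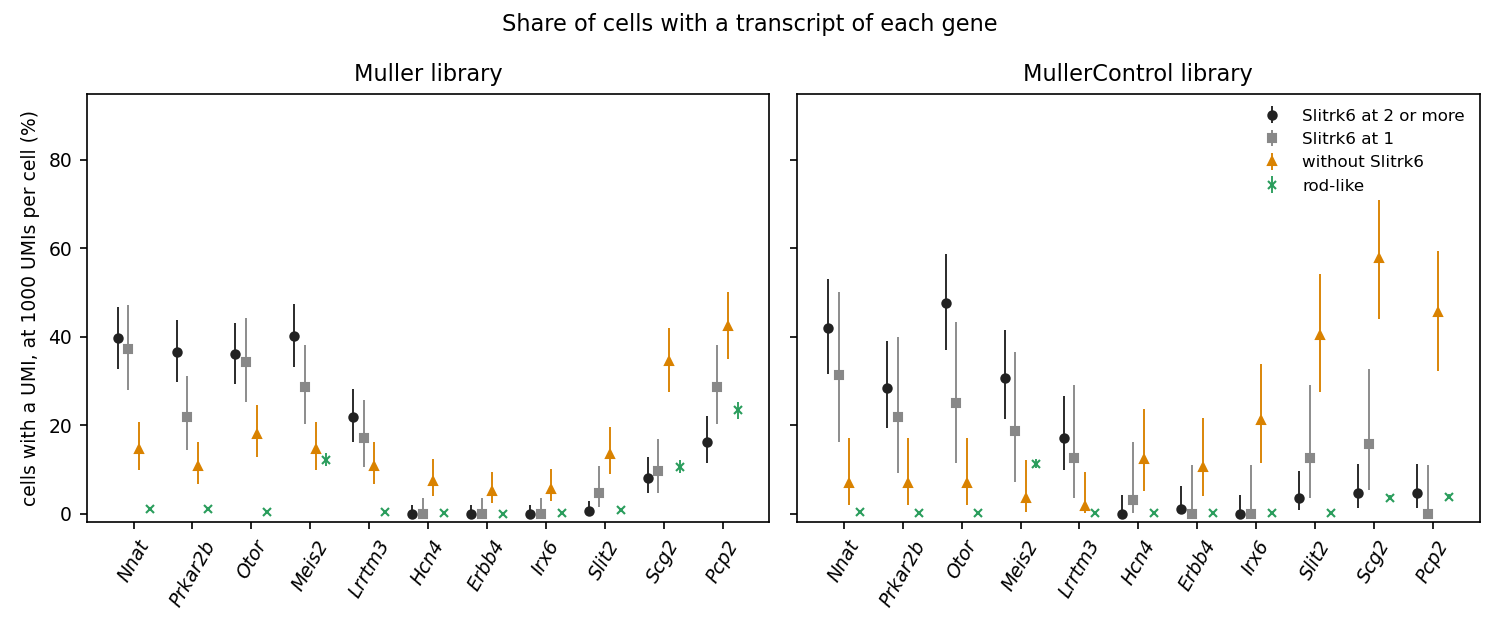
Percent of cells with at least 1 UMI of each gene after thinning every cell to 1000 UMIs (y axis), for OFF cells with at least 2, exactly 1 and no Slitrk6 UMIs and for rod-like barcodes, with exact 95% binomial intervals. Nnat, Prkar2b, Otor and Meis2 are highest where Slitrk6 is at 2 or more in both libraries; Hcn4 and Irx6 are at 0 there.

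By groups of genes, the 15 OFF type genes gave 7 measured, of which 2 (Nnat and Prkar2b) were higher and 3 (Hcn4, Irx6 and Erbb4) lower in both libraries; the list's medians were -2.94 and -0.66 beside 0.03 and 0.0097 over all genes. Of 33 transcription factors of bipolar cells 21 were measured, with Nfib, Sox4 and Meis2 higher and Vsx1, Irx6, Zfhx4 and Lmo4 lower. Vsx1 was used by the OFF step of the rule, so its ratio is partly set by that choice. Among 28 Slitrk family and other leucine-rich repeat adhesion genes 13 were measured, and apart from Slitrk6, which the rule itself sets apart, Lrrtm3 alone passed 2-fold in both libraries. Lrrtm3, a postsynaptic adhesion protein, was at 246 against 101 CPM and 262 against 30.4 CPM. Ptprd, a receptor phosphatase known as a presynaptic partner of Slitrk proteins, was at 330 against 604 CPM and 373 against 703 CPM, under the 2-fold limit. The list medians of adhesion genes, 0.25 and 0.21, lay close to those of all genes.

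Counts for receptors and the release machinery lay near the shares over all genes, 1.25% higher and 1.81% lower. None of 6 measured AMPA and kainate receptor genes and partners, and none of 9 GABA and glycine receptor genes, passed 2-fold in both libraries. The medians were 0.35 and 1.40 for the AMPA and kainate list and 0.57 and 0.38 for the GABA and glycine list, above those of all genes. The first list includes Grik1, which the OFF step of the rule used, with log2 ratios of 0.81 and 1.04. Its medians were not recalculated without that gene. Within the first list, Gria2, the AMPA subunit that limits calcium entry, was at 528 against 520 CPM and 627 against 653 CPM. Gria1, another AMPA subunit, was at 116 against 93.6 CPM and 184 against 55.7 CPM, and Cacng2, an AMPA receptor auxiliary subunit, at 82.1 against 56.7 CPM and 105 against 10.1 CPM, the last from 2 UMIs. The GABA-C receptor subunit Gabrr1 was at 397 against 227 CPM and 343 against 243 CPM. Of 20 measured ribbon synapse genes only Cplx4, a complexin also of rods, was lower, at 90.6 against 379 CPM and 59.5 against 445 CPM. In the potassium and HCN channel list, Hcn4 and Kcnh7 were the 2 of 10 that passed, both lower. The list of calcium-binding proteins gave Cabp2 and Rcvrn lower among 10. Recoverin, encoded by Rcvrn, is also a rod and cone protein, and 7 of the 11 rod genes were lower in the Slitrk6 cells by the same rule; the part of rod RNA in these 2 results was not tested.

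Further lists separated the groups in a few genes. Of 7 measured ON cascade genes Nyx, Gpr179 and Gnb5 were lower and none higher. Of the ON markers limited by the rule, Isl1 and Grm6 were also lower in the Muller library, and Trpm1 was not. Isl1 was in 4 of 197 Slitrk6 cells (6.84 CPM) and 29 of 177 cells without Slitrk6 (71.5 CPM). Grm6 was at 5.13 against 22.2 CPM. Trpm1 was at 104 against 103 CPM in Muller and at 91.9 against 86.0 CPM in MullerControl. In MullerControl Isl1 had 1 UMI against 3 and Grm6 had 2 against 2, and the part of ON cells among the comparison cells was not tested. Sox6, listed with ON cone bipolar types, was at 142 against 66.5 CPM and 170 against 20.2 CPM. Sox9, a factor best known in Müller glia, was at 171 against 69.0 CPM and 159 against 20.2 CPM. At the matched depth given above, Sox9 was found in 17.3% and 12.5% of Slitrk6 cells. In rod-like barcodes its shares were 0.658% and 0.373%. Sox6 was found at that depth in 14.2% and 10.2% of Slitrk6 cells, and in 0.455% and 0.117% of rod-like barcodes. The Müller intermediate filament gene Vim was at 17.1 against 249 CPM in the Muller library. There 86 of the 101 Vim UMIs of the comparison cells lay in 1 cell. In the MullerControl library Vim had 1 against 2 UMIs. No immediate early, interferon-induced or heat shock gene passed, of 5, 3 and 8 measured.

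The Slitrk6 cells were not uniform. Nnat or Prkar2b was found in 162 of 197 (82.2%, 76.2 to 87.3) of the Muller cells and 73 of 88 (83.0%, 73.4 to 90.1) of the MullerControl cells, and both genes in 86 and 48. Among cells with exactly 1 Slitrk6 UMI 67.6% and 62.5% had either gene, and among those without Slitrk6 29.9% and 21.1%. Hcn4, Erbb4 or Irx6 was found in 2 (1.02%) and 4 (4.55%) Slitrk6 cells, against 35 (19.8%) and 22 (38.6%) of the cells without it. Of other OFF type genes, Pcdh10 was in 5 and 8 Slitrk6 cells, Pcdh17 in 3 and 6, Tacr3 in 3 and 4 and Lhx3 in 1 and 3. In cells without Slitrk6 these numbers were 17 and 3, 16 and 5, 5 and 6, and 6 and 10. Pcdh10 was at 10.3 against 54.2 CPM in Muller but at 51.4 against 20.2 CPM in MullerControl. The cells lacking both Nnat and Prkar2b, 35 and 15, were shallower, with medians of 1794 and 2828 UMIs against 3113 and 4371.

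Those cells differed from the rest beyond the missing genes, most of all in the MullerControl library. Slit2 had 26 UMIs in 4 of the 15 cells lacking Nnat and Prkar2b and 0 UMIs in the 73 others. In the Muller library it had 11 UMIs in 2 of 35 cells and 6 UMIs in 5 of 162. Scg2, which encodes the granin secretogranin II, had 60 UMIs in 4 cells, 37 of them in 1 cell, against 8 UMIs in 8 cells in the MullerControl library. In the Muller library it had 42 UMIs in 11 lacking cells, 32 of them in 1 cell, against 90 UMIs in 46 of the others. Tacr3, a neurokinin receptor, Lhx3, a LIM homeobox factor, and Cdh8 had 13, 5 and 9 UMIs in the lacking cells and 0 in the others there. The Muller library did not show this, with 2, 0 and 1 UMIs in the lacking cells and 2, 2 and 1 in the others. All 2 and 4 lacking cells with Slit2 also had Scg2 UMIs, and 1 and 3 of them had Hcn4, Erbb4 or Irx6 UMIs.

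Gsg1 and Pcp4 moved the other way. Gsg1 was at 1230 CPM in lacking cells and 3277 CPM in the others in the Muller library, and at 507 and 3088 CPM in the MullerControl library. Pcp4 was at 1159 and 3027 CPM, and at 877 and 3355 CPM. Grik1 hardly differed, at 1573 and 1501 CPM and at 1539 and 1827 CPM. The split by Nnat and Prkar2b was made after their values were seen, and the lacking cells number 15 in 1 library, so these values are a description. Cells with exactly 2 Slitrk6 UMIs held more Slit2 than those with higher counts: 68.2 CPM at 2 and 12.2 CPM at 3 or more in the Muller library, and 332 and 9.98 CPM in the MullerControl library.

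**Figure D4:**
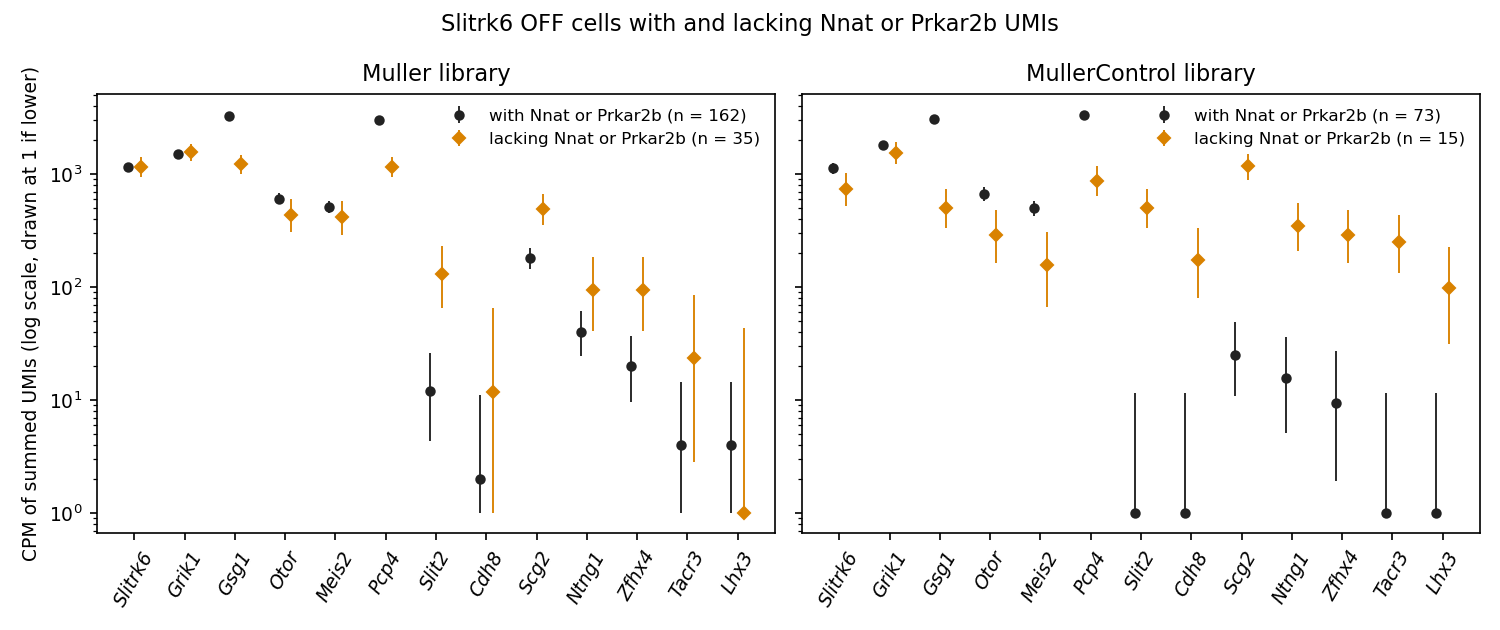
Summed CPM (log y axis) of 13 genes in Slitrk6 OFF cells with at least 1 Nnat or Prkar2b UMI (black) and lacking both (orange), with exact 95% Poisson intervals. Slit2, Cdh8, Tacr3 and Lhx3 are at 0 in the 73 MullerControl cells with either gene, drawn at 1 CPM.

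Between the libraries, the Slitrk6 cells differed in few genes. Of 3947 genes with at least 50 UMIs over both sums, 20 (0.507%) were at least 2-fold higher in the Muller library and 16 (0.405%) at least 2-fold lower, leaving 3911 within 2-fold. The cells without Slitrk6, which held fewer UMIs, gave 2.42% and 2.18% of 2563 genes by the same rule. Slitrk6 itself had a log2 ratio of 0.09 (-0.08 to 0.27), Nnat 0.35 (0.12 to 0.57), Prkar2b 0.11 (-0.19 to 0.42), Otor -0.09 (-0.33 to 0.15), Meis2 0.14 (-0.13 to 0.41) and Grik1 -0.24 (-0.39 to -0.10). The rule chose the cells of both libraries by Slitrk6 and, in its OFF step, Grik1. The ratios of these 2 genes are therefore partly set by that choice. Of 21 gene lists with a measured gene, 18 had none past 2-fold.

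The highest genes in the Muller library were carried mostly by single barcodes. Hbb-bs, Hba-a2, Hba-a1 and Hbb-bt, the globin genes of red blood cells, held 9173 of the 10873 UMIs of 1 barcode (84.4%), and 1 UMI in all other Slitrk6 cells of that library. Hbb-bs stood at 8981 CPM against 0 in the MullerControl library, at least 1108-fold higher. C1qb, C1qa and Ctss are genes of microglia, the resident immune cells, and a single cell held 67 of 71 C1qb, 65 of 67 C1qa and 68 of 70 Ctss UMIs, counted gene by gene. In total 1 barcode held 216 of the 226 UMIs of the microglia list. Without such barcodes 11 genes, not 20, were at least 2-fold higher. The first of these was Pcp2, at 232 against 62.2 CPM, a log2 ratio of 1.85 (1.23 to 2.48) over all Slitrk6 cells. The share of rod-like barcodes with a Pcp2 UMI was also higher in Muller, as given above, and its part in this result was not tested.

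The 8 lowest named genes were Arr3, Opn1mw, AY036118, Pde6h, Pstk, Pygm, Glyr1 and Meaf6. Arr3, cone arrestin, was at 65.0 and 273 CPM, and 1 cell held 27 of 38 UMIs in Muller and 57 of 101 in MullerControl. Opn1mw, the middle-wavelength cone opsin, was at 118 and 384 CPM, with 46 of 69 and 133 of 142 UMIs in 1 cell. Pde6h, the cone phosphodiesterase inhibitor, was at 200 and 549 CPM, with 58 of 117 and 125 of 203 UMIs in 1 cell. The other 5 were spread over 24 to 75 Muller cells and 30 to 62 MullerControl cells, with log2 ratios of -1.65 to -1.06. For AY036118, the largest of these, the level was 181 and 570 CPM.

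**Figure D5:**
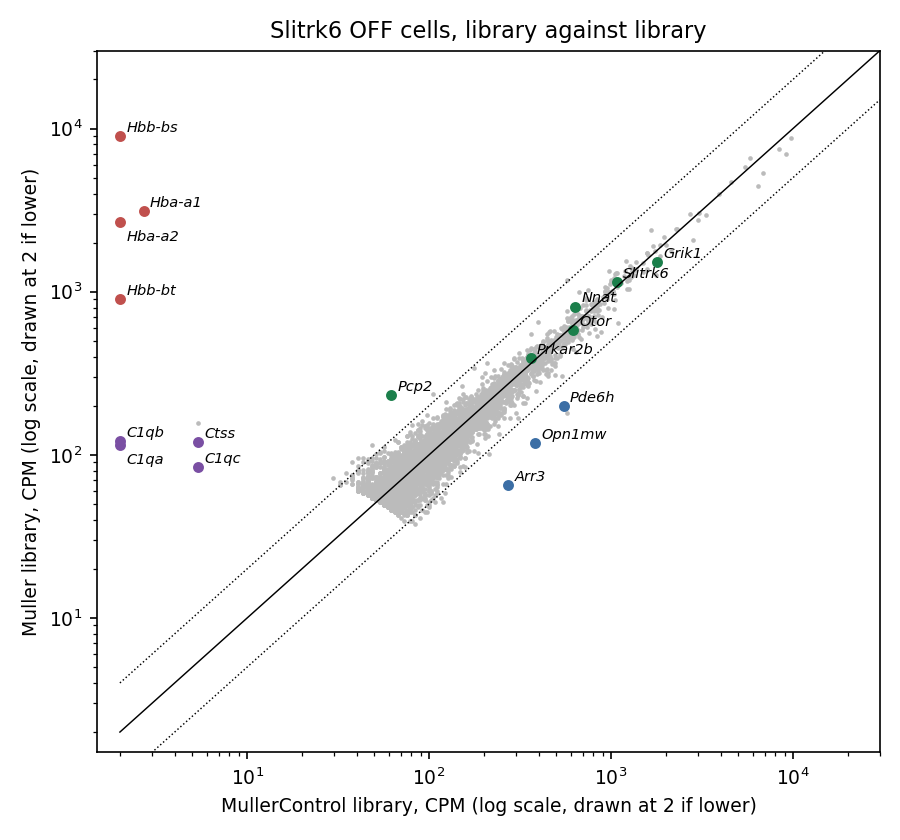
Each point is 1 of 3947 genes: CPM in Slitrk6 OFF cells of the MullerControl library (x axis) and of the Muller library (y axis), both log axes, with the diagonal and dotted lines at 2-fold. Globin (red) and microglia (purple) genes lie far above the diagonal and cone genes (blue) below. Of the green genes, Slitrk6, Nnat, Prkar2b, Otor and Grik1 lie near the diagonal and Pcp2 above the 2-fold line. Slitrk6 and Grik1 were used by the rule to choose the cells.

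The sequences upstream of Slitrk6 and Nnat, the gene that chose the cells and the other named gene with the highest ratio when ranked by the library nearer to 0, are given from RefSeq on GRCm38.p6, as the 250 bases before each annotated start, 5′ to 3′ on the gene's strand. The Slitrk6 window is chr14:110755150-110755399 on the minus strand and the Nnat window chr2:157559828-157560077 on the plus strand.
Slitrk6: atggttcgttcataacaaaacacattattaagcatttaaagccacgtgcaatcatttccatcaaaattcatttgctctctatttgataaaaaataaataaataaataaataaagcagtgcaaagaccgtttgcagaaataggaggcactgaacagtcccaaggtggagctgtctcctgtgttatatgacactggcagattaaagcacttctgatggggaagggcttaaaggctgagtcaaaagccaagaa
Nnat: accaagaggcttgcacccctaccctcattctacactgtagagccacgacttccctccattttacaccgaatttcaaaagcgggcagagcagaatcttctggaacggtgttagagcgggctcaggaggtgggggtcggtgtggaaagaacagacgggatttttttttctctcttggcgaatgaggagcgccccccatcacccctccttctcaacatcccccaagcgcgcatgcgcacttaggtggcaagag
The core TAATCC, bound by the photoreceptor and bipolar factors Crx and Otx2, was searched on both strands (TAATCC and GGATTA), with no capitals here because neither window held it. It was present in 2054 of 32851 such windows (6.25%).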

How the data were processed

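Single-cell RNA was measured in 2 libraries, Muller and MullerControl, with 1 library per group. The values deposited are raw UMI counts for each gene in each barcode. Per the matrix headers they come from Cell Ranger 4.0.0. Seurat 4.0.5 and the builds mm10 and GRCh38 stand in the submitters' processing notes, with no role given. The smallest deposited barcode had 500 UMIs, so shallower ones had been left out. The libraries held 25622379 and 23549118 UMIs over 32285 features. The members and the gene lists were chosen with earlier results of these data known.

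From these counts, UMIs were summed per library and cell group and given as CPM with exact Poisson intervals; shares have Clopper-Pearson intervals (both 95%). PCR and droplet effects are outside these intervals. Log2 ratios had 1 count added to each sum. Genes needed 50 UMIs; named genes also 100 CPM, the 12 highest and 12 lowest against cells without Slitrk6 (ranked by the library nearer to 0), the 8 highest and 8 lowest between libraries, the rule's genes, the OFF type genes and up to 4 genes of each other list. Some genes that this rule names are not reported here. A value of 0 was bounded by 3 counts per group. For detection, cells were thinned to 1000 UMIs. No doublets were removed in the rule; the automatic Scrublet threshold (scanpy 1.11.5) called 2 and 0 barcodes and had not worked, so as an alternative the highest scores were removed, 0.8% per 1000 barcodes, which took 19 and 8 Slitrk6 cells. The ratios were tested on simulated data. Other alternatives changed the Slitrk6, UMI, mitochondrial, ON gene and gene minimums, the scaling, and the barcodes kept. Promoter sequences came from RefSeq. The tools were pandas 2.3.3, numpy 2.4.6 and scipy 1.17.1 under Python 3.11.15, with matplotlib 3.10.9.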

Additional observations from a re-analysis of the deposited data

Results flagged for a closer look

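In 5 of the named genes the Slitrk6 cells lay above the OFF cells without Slitrk6 in one library and below them in the other. Their counting intervals lay on opposite sides of 0. The count covers the named genes, not all genes measured, and the difference between the libraries was not tested. For the microglia genes the log2 ratios were 0.75 (Muller) and -7.15 (MullerControl) for C1qa, 1.00 and -7.36 for C1qb, 0.95 and -5.36 for C1qc, and 0.81 and -5.36 for Ctss. Their UMIs lay in few barcodes: 1 Slitrk6 cell of the Muller library held 216 of 226 microglia-list UMIs, and 2 cells without Slitrk6 in the MullerControl library held at least 2% of UMIs from that list. Cabp5, a calcium-binding protein of bipolar cells, had log2 ratios of 0.38 and -0.37, at 1349 against 1032 CPM in Muller and at 1297 against 1680 CPM in MullerControl. Its level in the Slitrk6 cells themselves was close in both libraries, with a log2 ratio of 0.05 (-0.11 to 0.22).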

How the results depend on the processing

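No paired analysis was possible because the groups share only the replicate number 1. Of the values that answer a comparison, 71 stayed within their counting interval or within 1.5 times under the alternatives and 29 moved. The share of retained barcodes was 3.74% (Muller) and 1.54% (MullerControl) with a Slitrk6 minimum of 1, 1.60% and 0.875% with a minimum of 3, 3.12% and 2.05% at 2000 UMIs (ratio 1.52), 1.60% and 0.656% with no ON UMI allowed, and 3.39% and 3.31% without rod-rich barcodes (ratio 1.02, an alternative chosen after seeing the data, as was leaving out globin and microglia barcodes). The share of OFF cells was 63.0% and 67.8% with a Slitrk6 minimum of 1, 26.9% and 38.4% with a minimum of 3, and 52.3% in the Muller library at 2000 UMIs. The number of genes measured also changed under several alternatives. With no ON UMI allowed, 42 of 3794 genes were higher in both libraries than in cells without Slitrk6, beside 71 of 5701 in the main setting. Without ON UMIs, 6 of 2472 were lower in the Muller library, beside 16 of 3947. Genes higher in the Muller library numbered 11 of 3913 without globin and microglia barcodes and 32 of 3947 with cells weighted equally. A gene minimum of 20 UMIs gave 107 higher and 218 lower of 8619 against cells without Slitrk6. Between libraries it gave 115 higher and 148 lower of 7112. A minimum of 200 gave 23 and 36 of 1556, and 5 and 3 of 850.

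Among named genes 1745 values stayed, 113 moved and 12 reversed; the cause was not tested. Between libraries, Slit2 turned to 0.14 with a Slitrk6 minimum of 3 and Pcp4 to 0.014 at 2000 UMIs. Against cells without Slitrk6, Opn1mw turned to -1.72 in the MullerControl library with no ON UMI allowed, and Gsg1 there to -0.077 without rod-rich barcodes and to -0.023 with high doublet scores removed. That removal also turned C1qb, C1qa and Ctss to -3.04, -3.94 and -3.94 in the Muller library and Pde6h to 0.55 and 2.25. With cells weighted equally C1qa turned to -0.32 and Ctss to -0.13 in the Muller library. Depth limits the absence of a gene: 0 UMIs allow 5.13 and 8.11 CPM in the Slitrk6 cells.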

Other observations

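Xist, the RNA of the inactive X chromosome, was found without any Y-linked UMI in 114 of 197 Slitrk6 cells of the Muller library and 31 of 88 of the MullerControl library. Y-linked genes without Xist were found in 39 and 34, both in 4 and 3, and neither in 40 and 20. Each library therefore held Slitrk6 cells of both patterns, in different proportions, and the labels give no sex.

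Ptbp1, which encodes a splicing repressor, gave 20 and 12 UMIs in the Slitrk6 cells of Muller and MullerControl. Those are levels of 34.2 and 32.4 CPM and a log2 ratio of 0.03 (-0.97 to 1.03). Atoh7, a factor of ganglion cell genesis, had 3 and 1 UMIs. Cst3, which encodes the protease inhibitor cystatin C, was at 1176 against 570 CPM, a log2 ratio of 1.04 (0.82 to 1.26), but was not among the 11 genes at least 2-fold higher without globin and microglia barcodes. Apoe, an apolipoprotein gene of Müller glia whose level the rule limits, was among them and stood at 95.7 against 43.2 CPM over all Slitrk6 cells, a log2 ratio of 1.08 (0.30 to 1.87).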
